A study of Mus musculus with 24 samples.

Results

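The abundance of 10 transcripts used as markers of the neuronal cytoskeleton and of neuronal maturation was examined in cultured mouse neural stem and progenitor cells (NSPCs) with and without the histone acetyltransferase KAT6A. The 10 genes, *Tubb3*, *Dcx*, *Map2*, *Mapt*, *Stmn2*, *Stmn3*, *Nefl*, *Nefm*, *Gap43* and *Ina*, were chosen by symbol from the 26411 genes of the count data. The choice was made with earlier results of these data known, so it is not independent of them. The cells came from the dorsal telencephalon, the source of the cerebral cortex, of E12.5 mouse embryos on a C57BL/6 background. They were *Kat6a*+/+, *Kat6a*+/– or *Kat6a*–/–, where the null allele lacks several exons and stops the protein within its catalytic domain in every cell of the embryo. Each genotype was grown for 3 days with FGF2 and EGF (proliferating) or for 3 days on poly-L-ornithine and laminin with 1% serum in place of the growth factors (differentiating). There were 4 libraries for each of the 6 groups, 24 in all, made from polyadenylated RNA.

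Neurons are recognised by a cytoskeleton that dividing progenitors build only in part. Microtubules made with the βIII-tubulin isotype are bound by the microtubule-associated proteins MAP2 and tau in dendrites and axons and by doublecortin in migrating young neurons, while stathmins bind free tubulin and GAP-43 sits at the membrane of growth cones. Neurofilament subunits and α-internexin form the intermediate filaments of the axon, with α-internexin appearing early and the neurofilament light and medium chains later. Several of these transcripts are not exclusive to neurons, and MAP2 and GAP-43 are also made by neural progenitors and glia in culture.

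On mm39 (GRCm39), in GENCODE vM39, the 10 genes lie on 9 chromosomes and all are protein-coding. *Tubb3* is at chr8:124138163-124150092, *Dcx* at chrX:142638838-142716307, *Map2* at chr1:66214327-66481746, *Mapt* at chr11:104122024-104222946, *Stmn2* at chr3:8574151-8626667 and *Stmn3* at chr2:180948247-180956293. *Gap43* is at chr16:42068805-42161086 and *Ina* at chr19:47003069-47013770. *Nefl*, at chr14:68321268-68326544, lies within *Nefm*, at chr14:68320039-68362305, on the opposite strand. *Ina* likewise overlaps *Nt5c2* on the other strand. The strand setting of the counting was not given in the sources used here, so reads of overlapping genes cannot be told apart with certainty for *Nefl*, *Nefm* and *Ina*.

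Promoter windows of 250 bases before a RefSeq start site (GRCm38.p6) were found for 5 of the 10 genes, *Dcx*, *Ina*, *Map2*, *Stmn3* and *Tubb3*. Those of *Dcx*, *Stmn3* and *Tubb3* are shown because the genotype comparisons turn on these genes, a choice made after their values were seen. They run 5′ to 3′ on the gene's strand, at chrX:143933220-143933469 (minus strand, the upstream start of *Dcx*), chr2:181314501-181314750 (minus strand, *Stmn3*) and chr8:123411303-123411552 (plus strand, *Tubb3*). Capitals mark matches to the TATA box TATAAA, the GC box GGGCGG, the E-boxes CAGCTG and CAGATG, or the SOX motif ACAAAG, on either strand.
Dcx: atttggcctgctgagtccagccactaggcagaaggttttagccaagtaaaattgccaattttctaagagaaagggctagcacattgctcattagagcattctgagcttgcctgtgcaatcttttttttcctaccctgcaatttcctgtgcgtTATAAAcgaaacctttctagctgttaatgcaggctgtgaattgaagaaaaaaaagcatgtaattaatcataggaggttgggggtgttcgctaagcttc
Stmn3: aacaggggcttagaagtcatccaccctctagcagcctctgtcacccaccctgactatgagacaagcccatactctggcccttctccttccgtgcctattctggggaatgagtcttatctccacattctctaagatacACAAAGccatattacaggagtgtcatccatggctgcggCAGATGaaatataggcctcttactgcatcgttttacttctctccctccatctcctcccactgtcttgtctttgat
Tubb3: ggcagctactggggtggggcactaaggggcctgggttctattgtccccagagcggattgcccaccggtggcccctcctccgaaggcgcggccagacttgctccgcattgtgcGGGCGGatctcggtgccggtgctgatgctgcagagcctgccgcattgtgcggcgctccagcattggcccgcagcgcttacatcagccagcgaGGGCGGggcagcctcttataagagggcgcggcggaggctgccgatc
The windows differ in composition, with 41.6% G and C in *Dcx*, 48.8% in *Stmn3* and 68% in *Tubb3*, against a median of 52.4% over 32851 promoter windows. *Dcx* carried a TATAAA match, which 12.4% of all windows hold. The window of the downstream *Dcx* start, not shown, is at chrX:143933125-143933374 with 44.8% G and C. It overlaps the upstream window, and it held a TATAAA and an ACAAAG match. *Tubb3* carried GGGCGG in 2 places, a hexamer found in 32.7% of windows. *Stmn3* held CAGATG, present in 14.4% of windows, and ACAAAG, present in 16.5%. No hexamer was shared by the 3 windows. A match is a description of these letters only.

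Before the comparisons, the libraries were checked. Total counts ranged from 7826660 to 40838203 in proliferating and from 14836869 to 23692125 in differentiating NSPCs. The litters numbered 5 and 7, and 6 embryo labels occurred in both conditions. In proliferating cells *Kat6a* itself averaged 395 ± 16.7 CPM (read counts scaled to library size; mean ± SD over 4 libraries) in wildtype *Kat6a*+/+ and 355 ± 24.6 CPM in homozygous *Kat6a*–/– cultures, and it averaged 267 ± 24.2 and 191 ± 43.1 CPM in differentiating NSPCs, where it was called lower (log2 −0.69, limma FDR 3.33e-05). The counts cover the whole gene while the allele lacks only some exons, so this level does not check the genotype labels. Reads of Y-linked genes differed between the conditions in *Kat6a*+/+ replicates 1 and 2. Replicate 1 carries the same embryo label in both conditions, with Y-linked reads only in the differentiating library, so 1 of these libraries goes against its label. Replicate 2 is labelled litter 4346 when proliferating and litter 4364 when differentiating, with Y-linked reads only in the proliferating library, and there no label is contradicted. All 4 libraries are *Kat6a*+/+ by label, and the comparisons with *Kat6a*+/+ were repeated without them. Different RNA kits were used for proliferating and differentiating cells, so kit and condition cannot be told apart. In these bulk samples, fewer neurons and less RNA per neuron cannot be told apart either.

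Per unit of transcript length, the 10 genes spanned a wide range of levels. In proliferating *Kat6a*+/+ NSPCs *Gap43* stood first at 417 ± 88.9 RPKM (CPM divided by the gene model length in kilobases) and *Map2* second at 88.9 ± 10.7 RPKM, followed by *Stmn3* at 15.1 ± 2.35 RPKM. *Mapt* and *Tubb3* lay at 2.88 ± 0.772 and 2.48 ± 0.0944 RPKM, within the spread of one another. *Ina* at 0.958 ± 0.399, *Nefm* at 0.376 ± 0.0772 and *Dcx* at 0.342 ± 0.137 RPKM were lower still, and the last pair did not differ beyond their spread. In differentiating *Kat6a*+/+ NSPCs the order was *Map2* at 46.7 ± 2.40, *Tubb3* at 41.5 ± 10.8, *Gap43* at 27.3 ± 2.88 and *Stmn3* at 26.5 ± 7.67 RPKM, with *Map2* and *Tubb3*, and *Gap43* and *Stmn3*, within their spreads. *Dcx* reached 4.30 ± 2.61, *Mapt* 3.74 ± 0.686 and *Ina* 2.93 ± 0.891 RPKM. *Nefm*, *Stmn2* and *Nefl* averaged 0.0614, 0.0479 and 0.0152 RPKM. Each value here is a mean ± SD over 4 libraries.

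The name of the gene group and the levels disagreed in part. *Map2* and *Gap43* were highest in proliferating cells, and the 2 neurofilament chains were near 0 in both conditions. *Nefl* had at most 10 reads in a proliferating library and at most 4 in a differentiating one, and 0 reads in all 4 differentiating *Kat6a*+/– libraries, which allows a level of up to 0.0466 CPM (3 counts over the group). The filter on low counts removed *Nefl* from the tests reported here. Without that filter it was called lower with differentiation in *Kat6a*+/+ (log2 −1.96, limma FDR 0.0491) and in *Kat6a*+/– NSPCs (log2 −2.31, limma FDR 0.0267) and in no other comparison. The counts of defining markers of mature projection neurons were also low, with *Neurod2*, *Neurod6* and *Slc17a6* at 0 in all proliferating libraries of every genotype.

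**Figure D1:**
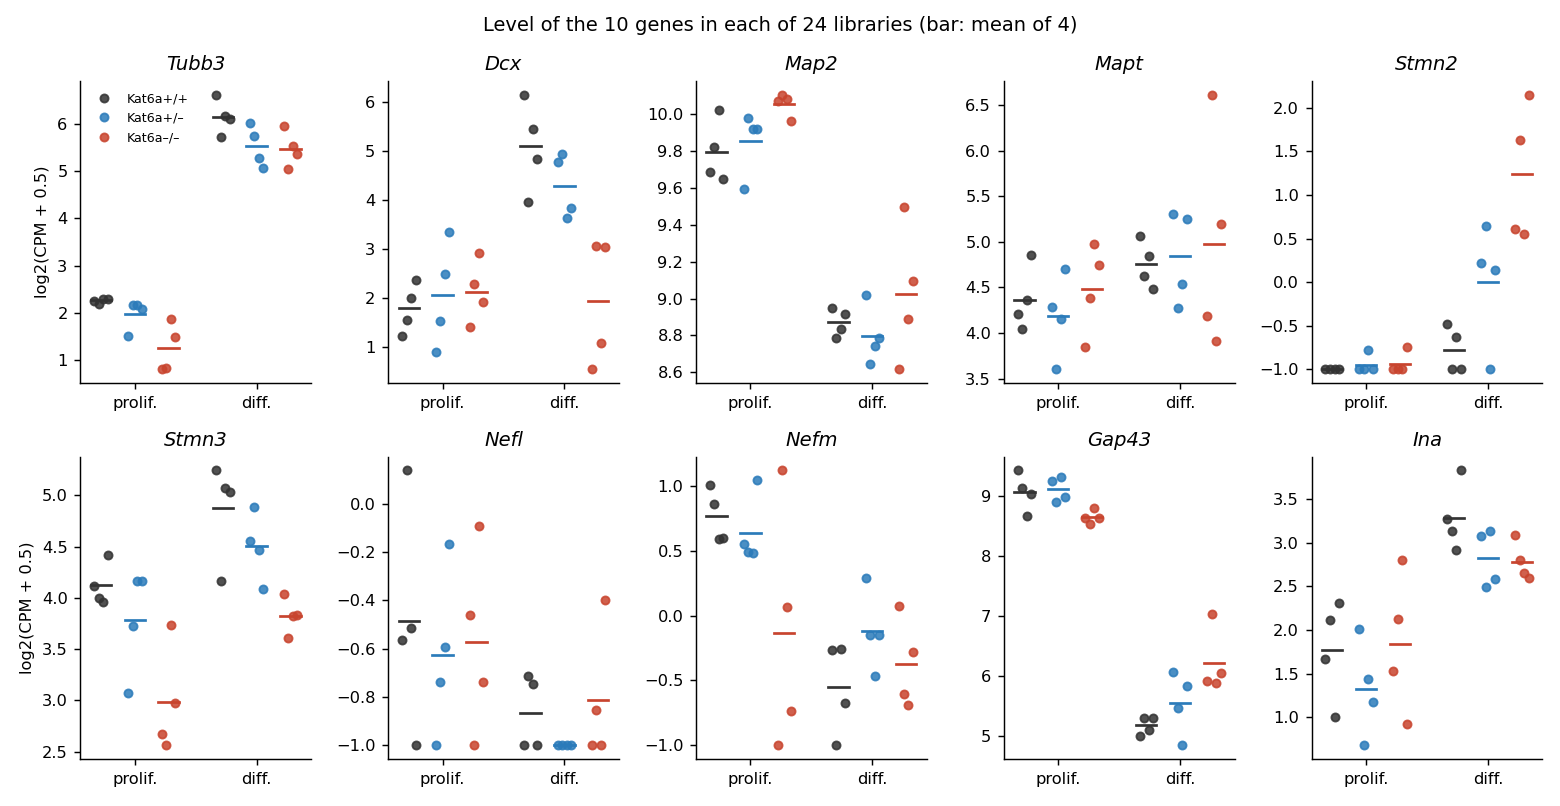
Level of each of the 10 genes as log2(CPM + 0.5) in 24 libraries, with proliferating libraries at the left and differentiating libraries at the right of each panel, colours for the genotypes and bars for the mean of 4 libraries on that scale. The vertical scale differs between panels; *Gap43* and *Map2* sit highest in proliferating libraries, *Tubb3*, *Dcx* and *Ina* in differentiating *Kat6a*+/+ libraries, and *Dcx* in differentiating *Kat6a*–/– libraries (0.963 to 7.86 CPM) overlaps the proliferating ones.

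To see how the 10 genes differ between the 2 culture conditions, differentiating and proliferating libraries were compared within each genotype. The conditions differ in growth factors, serum, coating and RNA kit together. In *Kat6a*+/+ NSPCs 4 of the 9 tested genes were higher in differentiating cells (*Tubb3*, *Dcx*, *Stmn3* and *Ina*) and 3 were lower (*Map2*, *Nefm* and *Gap43*) at a false discovery rate (FDR) under 0.05. The background was high, since 72.9% of 13590 genes passed the same limit, 36.7% higher and 36.2% lower, so the share of genes called says little about this group. The groups of libraries did not overlap for 6 of the 9, all those called except *Stmn3*, against 71.9% of all tested genes. *Nefm* passed the filter on low counts through proliferating libraries, so the filter favoured its call and its lack of overlap. In *Kat6a*+/– NSPCs 4 genes were higher and 2 lower, where 69.7% of all genes were called (35.4% higher, 34.2% lower), and in *Kat6a*–/– NSPCs 3 were higher and 2 lower, where 69.2% were called (35.8% higher, 33.5% lower). The groups did not overlap for 6 of 9 in *Kat6a*+/– and for 4 of 9 in *Kat6a*–/– NSPCs, against 62.3% and 58.8% of all tested genes. The first of these tallies includes *Nefm*. The second includes *Stmn2*, which passed the filter through differentiating mutant libraries and was favoured by it in the same way.

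*Tubb3*, which encodes βIII-tubulin, was at 4.27, 4.09, 4.43 and 4.44 CPM in proliferating *Kat6a*+/+ libraries 1 to 4 and at 97.5, 52.4, 70.9 and 68.3 CPM in the differentiating ones. Every differentiating library was far above every proliferating one. On the log2 scale the difference was 4.04 (SE 0.35, FDR 2.02e-09 in limma). It was 3.73 (SE 0.46) in *Kat6a*+/– and 4.50 (SE 0.60) in *Kat6a*–/– NSPCs, and the gene was called higher in all 3 genotypes.

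*Dcx*, which encodes doublecortin, was higher with differentiation in *Kat6a*+/+ and *Kat6a*+/– NSPCs and was not called in *Kat6a*–/– NSPCs. Its proliferating *Kat6a*+/+ libraries were at 1.85, 2.46, 3.52 and 4.69 CPM and its differentiating ones at 70.6, 15.0, 43.4 and 28.2 CPM, a log2 fold-change of 3.76 (SE 0.71, limma FDR 6.94e-05). In *Kat6a*+/– NSPCs the log2 fold-change was 2.42 (SE 0.81, limma FDR 0.0117). Proliferating *Kat6a*–/– libraries were at 2.15, 4.38, 7.12 and 3.29 CPM and differentiating ones at 0.963, 7.86, 1.63 and 7.75 CPM. The groups overlapped, and the log2 fold-change was −0.24 (SE 1.05, limma FDR 0.851, 95% interval −2.41 to 1.94). Under edgeR, DESeq2 and the fit with litter as a fixed term the sign of this difference was positive.

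*Gap43*, which encodes a growth cone phosphoprotein, moved the other way. It was at 690, 564, 408 and 524 CPM in proliferating *Kat6a*+/+ libraries and at 31.5, 39.0, 33.7 and 38.9 CPM in differentiating ones. The fitted log2 fold-change fell by 3.89 (SE 0.24, limma FDR 2.03e-11). In *Kat6a*+/– it was −3.59 (SE 0.24) and in *Kat6a*–/– NSPCs −2.44 (SE 0.23), with no overlap between conditions in any genotype.

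*Map2*, a dendritic microtubule-associated protein gene, was at 801 to 1038 CPM in proliferating and 440 to 493 CPM in differentiating *Kat6a*+/+ libraries, a log2 fold-change of −0.93 (SE 0.14, limma FDR 3.06e-06). In *Kat6a*+/– NSPCs it was −1.06 (SE 0.13) and in *Kat6a*–/– NSPCs −1.04 (SE 0.13). *Ina*, the α-internexin gene, was higher in differentiating cells, with log2 fold-changes of 1.71 (SE 0.31) in *Kat6a*+/+, 1.69 (SE 0.43) in *Kat6a*+/– and 1.08 (SE 0.41) in *Kat6a*–/– NSPCs. *Stmn3*, a neuronal stathmin gene, was higher by 0.80 (SE 0.22, limma FDR 0.00311) in *Kat6a*+/+ and by 0.76 (SE 0.28, called by limma) in *Kat6a*+/– NSPCs, and its estimate in *Kat6a*–/– NSPCs, 0.85 (SE 0.38), missed the limit with an FDR of 0.0531 in limma.

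Among the genes at low or variable level, *Mapt*, the tau gene, was not called in any genotype, with log2 fold-changes of 0.47, 0.66 and 0.52. *Nefm*, the neurofilament medium chain gene, was called lower in *Kat6a*+/+ NSPCs, by 3.12 (SE 0.70) on the log2 scale, on 100 reads in the 4 proliferating and 16 reads in the 4 differentiating libraries. *Nefm* passed the filter of this fit through proliferating libraries, so the filter favoured that call. In *Kat6a*+/– NSPCs its estimate was −1.33 with an FDR of 0.0699 in limma. Without *Kat6a*+/+ replicates 1 and 2 *Nefm* was no longer called in *Kat6a*+/+ and the count of called genes was 6, with 54.1% of all genes, whereas without replicate 1 alone it was 7, with 65.8%. *Stmn2*, a stathmin gene of outgrowing axons, had 0 reads in all 4 proliferating *Kat6a*+/+ libraries, which allows up to 0.0405 CPM (3 counts over the group). It had 7 reads in the 4 differentiating *Kat6a*+/+ libraries and 141 reads in the 4 differentiating *Kat6a*–/– libraries. With differentiation *Stmn2* was called higher in *Kat6a*–/– NSPCs (log2 fold-change 4.65, SE 1.02, limma FDR 0.000387). *Stmn2* passed the filter of this fit through differentiating mutant libraries alone, so the filter favoured that call. In *Kat6a*+/– NSPCs its estimate of 2.47 (SE 1.15) had an FDR of 0.0607 in limma and was called in 6 of 12 other settings.

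**Figure D2:**
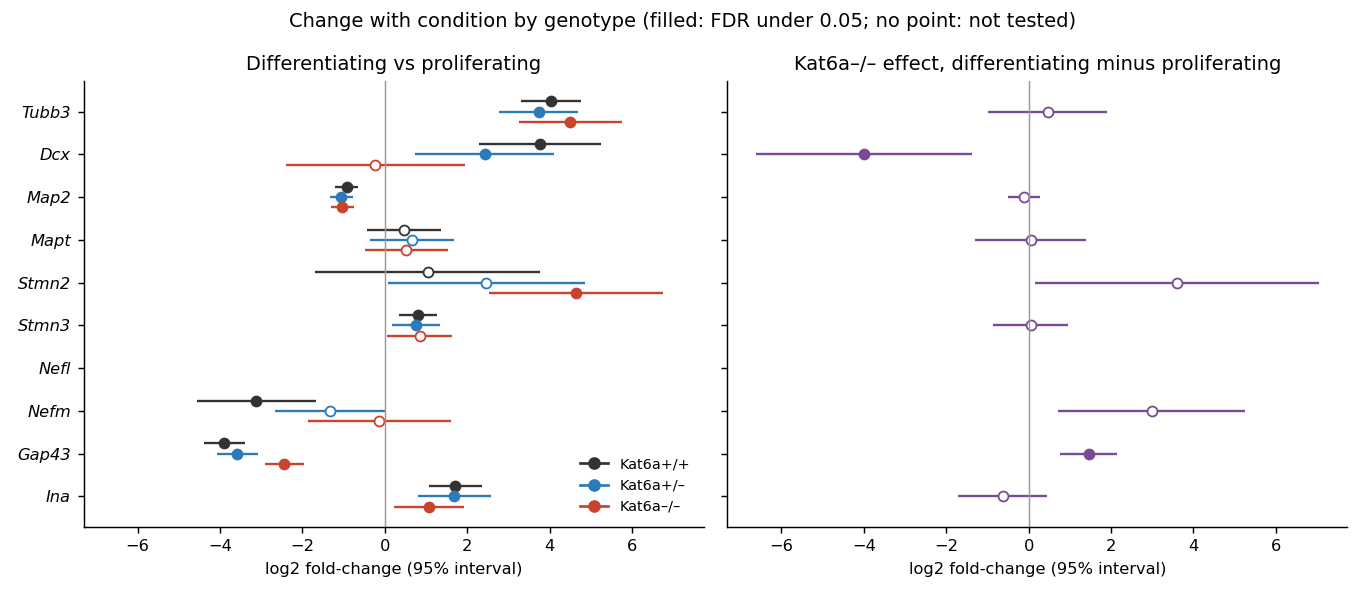
Log2 fold-change of differentiating against proliferating NSPCs in each genotype (left) and the difference between the *Kat6a*–/– effect in differentiating and in proliferating NSPCs (right), with 95% confidence intervals; filled points have an FDR under 0.05 and genes without a point were not tested. *Dcx* has a filled point at 3.76 in *Kat6a*+/+ and an open one at −0.24 in *Kat6a*–/– NSPCs, and *Dcx* and *Gap43* have filled points at the right.

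Whether the loss of KAT6A altered the 10 genes differently in the 2 conditions was tested by an interaction term in the fit of all 24 libraries. It was called for 2 of the 9 tested genes, 1 higher and 1 lower, against a background of 13.9% of 13590 genes (6.36% higher, 7.58% lower). For *Dcx* the *Kat6a*–/– effect was lower in differentiating than in proliferating NSPCs by a log2 value of −4.00 (SE 1.26, limma FDR 0.0381). For *Gap43* it was higher by 1.45 (SE 0.33, limma FDR 0.00611). Neither call held without *Kat6a*+/+ replicates 1 and 2, where the log2 values were −3.34 (limma FDR 0.171) and 1.23 (limma FDR 0.140). In that smaller set 3.29% of all genes were called. Without replicate 1 alone, in both conditions, *Gap43* was called (1.26, limma FDR 0.0407) and *Dcx* was not (−3.31, limma FDR 0.107), with 6.62% of all genes. *Dcx* was also lost when *Kat6a*–/– replicate 1 or 3 of the differentiating libraries, *Kat6a*+/+ replicate 1 or 2 of the proliferating libraries or *Kat6a*–/– replicate 2, 3 or 4 of the proliferating libraries was left out, with the FDR reaching at most 0.108 in limma, and under the replicate block (−3.79, limma FDR 0.0595). *Gap43* remained called in all 24 such fits and under the replicate block. The interaction was not called for *Tubb3* (0.46, 95% interval −0.98 to 1.90), for *Stmn3* (0.05, −0.87 to 0.96) or for *Map2* (−0.11, −0.50 to 0.29). *Stmn2* (3.60, SE 1.66) and *Nefm* (2.98, SE 1.09) had large estimates with an FDR of 0.150 and 0.0699 in limma. For the *Kat6a*+/– genotype no member was called in limma, and neither was any of 13590 genes, of which 412 had an unadjusted p under 0.05. edgeR and DESeq2 called 0 genes as well, and without *Kat6a*+/+ replicates 1 and 2 limma called 1 gene and no member.

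In proliferating NSPCs the loss of both *Kat6a* alleles went with lower *Tubb3* and *Stmn3* and with slightly higher *Map2*. These were the 3 genes called among 8 tested, 1 higher and 2 lower, while 30% of 12276 genes were called, 16.2% higher and 13.8% lower. The groups did not overlap for *Tubb3* and *Stmn3*, 2 of 8, against 31.3% of all tested genes. The other tested genes were *Dcx*, *Mapt*, *Nefm*, *Gap43* and *Ina*. *Stmn2* and *Nefl* did not pass the filter on low counts.

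*Tubb3* in proliferating NSPCs was at 4.27, 4.09, 4.43 and 4.44 CPM in *Kat6a*+/+, at 2.33, 4.01, 4.00 and 3.71 CPM in *Kat6a*+/– and at 1.25, 1.29, 3.18 and 2.29 CPM in *Kat6a*–/– libraries. All 8 mutant libraries lay below the lowest *Kat6a*+/+ library, on counts of 10 to 29 reads in *Kat6a*–/–. The log2 fold-change of *Kat6a*–/– against *Kat6a*+/+ was −1.19 (SE 0.28, limma FDR 0.00694), and against *Kat6a*+/– it was −0.90 (SE 0.28, limma FDR 0.0486). The latter was called in 2 of 11 other settings and in 2 of 12 fits that left out a library. *Stmn3* was at 16.9, 15.5, 15.1 and 20.9 CPM in *Kat6a*+/+, at 7.89, 12.7, 17.4 and 17.5 CPM in *Kat6a*+/– and at 5.89, 5.41, 12.8 and 7.38 CPM in *Kat6a*–/– libraries. The *Kat6a*–/– libraries were all below the *Kat6a*+/+ range, with a log2 fold-change of −1.22 (SE 0.29, limma FDR 0.00756). In the 2 litters with both genotypes the order was the same: *Stmn3* was at 15.1 CPM in the *Kat6a*+/+ and 5.65 CPM (mean of 2) in the *Kat6a*–/– libraries of litter 4633, and at 20.9 and 12.8 CPM in litter 4746. *Tubb3* in these litters was at 4.43 against 1.27 CPM and at 4.44 against 3.18 CPM.

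The rise of *Map2* in proliferating *Kat6a*–/– NSPCs was small. It was at 823, 903, 1038 and 801 CPM in *Kat6a*+/+ and at 1075, 1101, 1084 and 996 CPM in *Kat6a*–/– libraries, which overlap, with a log2 fold-change of 0.25 (SE 0.08, limma FDR 0.0374). It was lost in 6 of 12 fits that left out a library. *Gap43* was at 370 to 448 CPM in *Kat6a*–/–, 408 to 690 CPM in *Kat6a*+/+ and 480 to 638 CPM in *Kat6a*+/– libraries. The difference from *Kat6a*+/+ had an FDR of 0.0706 in limma (log2 −0.31, SE 0.12) and passed the limit in edgeR (FDR 0.0438). Against *Kat6a*+/– it was called lower in limma (log2 −0.43, SE 0.12, FDR 0.0281), where 2 of 8 members were called, both lower, against 14.8% of all genes (8.47% higher, 6.3% lower). The groups did not overlap there for *Gap43* alone, against 12.3% of all genes. *Nefm* had 0, 13, 5 and 1 reads in *Kat6a*–/– libraries 1 to 4, and its estimate of −1.99 (SE 0.73) had an FDR of 0.0529 in limma. When *Kat6a*+/+ replicates 1 and 2 were left out, 0 of the members were called in limma with estimates of −1.19 for *Tubb3* (FDR 0.0639), −1.20 for *Stmn3* (FDR 0.0614) and 0.23 for *Map2* (FDR 0.195), in a fit where 7.51% of all genes were called. Without replicate 1 alone *Tubb3* and *Stmn3* were called, with 18.7% of all genes.

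In differentiating NSPCs 6 of the 8 tested genes differed between *Kat6a*–/– and *Kat6a*+/+. *Tubb3*, *Dcx*, *Stmn3* and *Ina* were lower, and *Stmn2* and *Gap43* were higher. Over all 13339 genes tested 54.4% were called, 26.7% higher and 27.7% lower. Groups were free of overlap for *Dcx*, *Stmn2*, *Stmn3* and *Gap43*, 4 of 8, against 26.9% of all genes. *Stmn2* passed the filter on low counts through mutant libraries alone, with 0 to 4 reads in *Kat6a*+/+ and 15 to 61 in *Kat6a*–/– libraries. Its higher call and lack of overlap were therefore favoured by the filter and are no independent support. *Map2* (log2 0.00, 95% interval −0.20 to 0.21) and *Mapt* were not called, and *Nefl* and *Nefm* were not tested.

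*Dcx*, the doublecortin gene, was lower in every *Kat6a*–/– library. Its libraries were at 70.6, 15.0, 43.4 and 28.2 CPM in *Kat6a*+/+, at 26.9, 30.3, 11.96 and 13.8 CPM in *Kat6a*+/– and at 0.963, 7.86, 1.63 and 7.75 CPM in *Kat6a*–/– NSPCs. Every *Kat6a*–/– library was below every library of the other genotypes. The log2 fold-change against *Kat6a*+/+ was −4.51 (SE 0.49, limma FDR 1.83e-05), and against *Kat6a*+/– it was −3.39 (SE 0.57, limma FDR 0.00119). These estimates use quality weights that give *Kat6a*–/– replicate 3 a share of 69.0% of its group, while without weights the log2 fold-change was −3.36 (limma FDR 0.00496), and the plain ratio of mean CPM was 8.64-fold. In litter 4633 *Dcx* was at 43.4, 26.9 and 4.41 CPM (the last a mean of 2) in *Kat6a*+/+, *Kat6a*+/– and *Kat6a*–/–, and in litter 4746 at 28.2, 30.3 and 1.63 CPM.

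*Stmn3* was at 37.4, 17.4, 33.2 and 32.3 CPM in *Kat6a*+/+, at 23.0, 29.2, 21.7 and 16.5 CPM in *Kat6a*+/– and at 15.9, 11.7, 13.6 and 13.8 CPM in *Kat6a*–/– libraries. The *Kat6a*–/– libraries again lay below all others, and they varied little. The log2 fold-change was −1.23 (SE 0.17, limma FDR 0.000117) against *Kat6a*+/+ and −0.66 (SE 0.21, limma FDR 0.0247) against *Kat6a*+/–. The estimates against *Kat6a*+/+ in the 2 conditions were −1.22 and −1.23, and their difference had a 95% interval of −0.87 to 0.96 in the fit of all libraries.

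*Tubb3* was at 97.5, 52.4, 70.9 and 68.3 CPM in *Kat6a*+/+, at 64.6, 53.0, 38.3 and 33.1 CPM in *Kat6a*+/– and at 61.9, 32.5, 45.6 and 40.6 CPM in *Kat6a*–/– libraries. The *Kat6a*–/– and *Kat6a*+/+ groups overlapped. The log2 fold-change was −0.74 (SE 0.21, limma FDR 0.0100), and it did not pass in edgeR (−0.68, FDR 0.0748), without quality weights (−0.68, limma FDR 0.0744) or with litter as a fixed term (−0.52, limma FDR 0.137). *Ina* was at 9.14, 8.30, 7.05 and 13.7 CPM in *Kat6a*+/+ and at 7.98, 6.48, 5.79 and 5.55 CPM in *Kat6a*–/– libraries. The log2 fold-change of −0.51 (SE 0.20, limma FDR 0.0449) was close to the limit and was lost in 9 of 11 other settings.

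Higher levels in *Kat6a*–/– were seen for *Gap43* and *Stmn2*. *Gap43* was at 31.5, 39.0, 33.7 and 38.9 CPM in *Kat6a*+/+, at 66.5, 43.9, 28.2 and 56.2 CPM in *Kat6a*+/– and at 59.6, 130, 58.4 and 65.7 CPM in *Kat6a*–/– libraries. All *Kat6a*–/– libraries exceeded the *Kat6a*+/+ range, by a log2 fold-change of 0.86 (SE 0.19, limma FDR 0.00227), yet they remained far below the 370 CPM or more of proliferating cells. *Stmn2* was at 0.220, 0, 0.145 and 0 CPM in *Kat6a*+/+, at 0.663, 1.07, 0 and 0.605 CPM in *Kat6a*+/– and at 1.03, 2.60, 0.964 and 3.94 CPM in *Kat6a*–/– libraries. The *Kat6a*–/– libraries held 15 to 61 reads and the *Kat6a*+/+ libraries 0 to 4. The log2 difference was 2.44 (SE 0.56, FDR 0.00270 in limma), and on counts so low it depended on the method, with 4.50 in edgeR.

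*Mapt* was uneven among the *Kat6a*–/– libraries, at 17.8, 97.3, 14.6 and 36.0 CPM, against 33.0, 24.2, 28.1 and 21.8 CPM in *Kat6a*+/+. Replicate 2, the highest, carried 4.22% of the group weight in the fit. The estimate was −0.67 (SE 0.29, limma FDR 0.0686) with these weights and 0.22 without them (limma FDR 0.780), so its direction was not settled. Replicate 2 was also the highest *Kat6a*–/– library for *Gap43* and *Map2*, at 130 and 721 CPM.

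The calls in differentiating NSPCs rested on few libraries. Without *Kat6a*–/– replicate 3 none of the 6 genes was called in limma, with an FDR of 0.0501 for *Dcx* (log2 −3.38) and of 0.0551 for *Gap43* (log2 1.48), and the share of all genes called fell to 6.99%. Without *Kat6a*–/– replicate 1 only *Dcx* and *Stmn3* were called, with 9.01% of all genes. Signs were kept in all of these fits for the 6 genes. Without *Kat6a*+/+ replicates 1 and 2 there were 4 genes called, *Dcx* (−4.11, limma FDR 0.000526), *Stmn3*, *Stmn2* (2.93) and *Gap43* (0.77), and 40.4% of all genes. Without replicate 1 alone these 4 were called too, with 43.9% of all genes. The same 4 genes were called in edgeR, where 24.3% of all genes passed. With litter as a fixed term *Dcx*, *Stmn2* and *Stmn3* were called, and 13.4% of all genes.

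**Figure D3:**
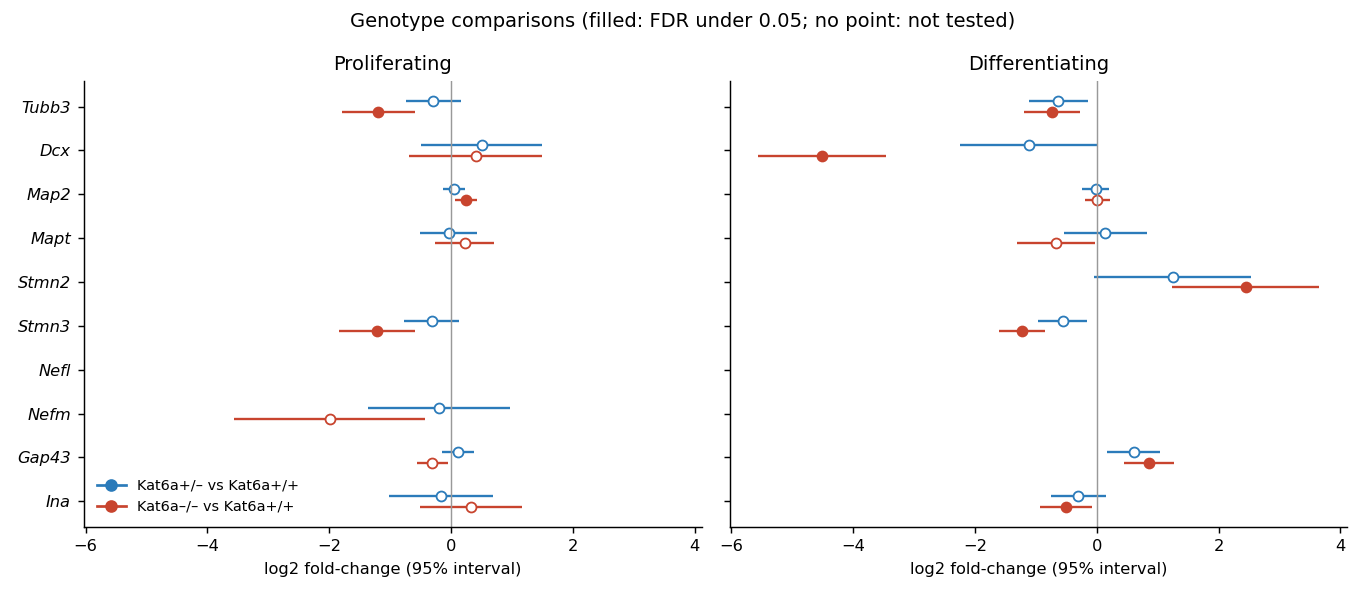
Log2 fold-change of *Kat6a*+/– and of *Kat6a*–/– against *Kat6a*+/+ NSPCs in proliferating (left) and differentiating (right) cultures with 95% confidence intervals; filled points have an FDR under 0.05 and genes without a point were not tested. *Tubb3* and *Stmn3* have filled points below 0 in both panels, *Dcx* stands at −4.51 in the right panel, and all *Kat6a*+/– points are open.

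**Figure D4:**
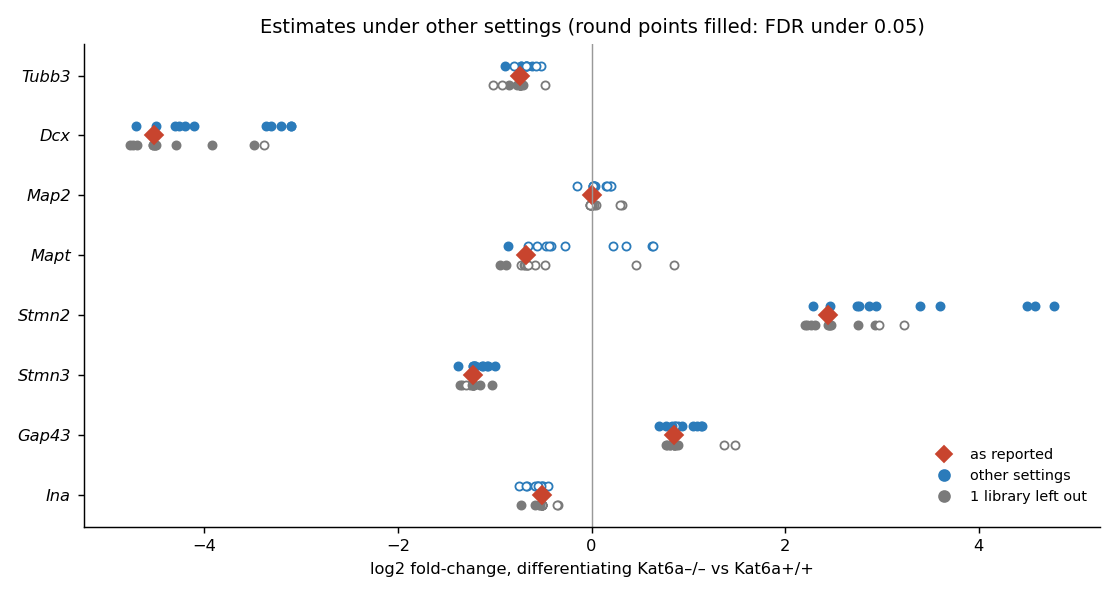
Log2 fold-change of differentiating *Kat6a*–/– against *Kat6a*+/+ NSPCs as reported (diamonds), under 11 other settings (upper row of each gene) and with each of 12 libraries left out in turn (lower row); filled round points have an FDR under 0.05. *Dcx* and *Stmn3* stay below 0 and *Gap43* and *Stmn2* above 0 throughout, whereas *Mapt* lies on both sides of 0.

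In *Kat6a*+/– NSPCs no member was called against *Kat6a*+/+ in either condition in limma, and 0% of all genes were. *Kat6a*+/– and *Kat6a*+/+ libraries did not overlap for 1 of 8 members in proliferating NSPCs, *Tubb3*, against 4.53% of all genes, and for 0 of 8 in differentiating NSPCs, against 2.79%. At an unadjusted p under 0.05 there were 912 of 12276 genes in proliferating NSPCs, with none of the 8 members among them, and 1926 of 13339 genes in differentiating NSPCs, with 3 of the 8 members among them. edgeR called 0 genes in both conditions and DESeq2 called 28 and 8 genes, no member among them. The 3 members were *Tubb3* (log2 −0.63, 95% interval −1.12 to −0.15, limma FDR 0.263), *Stmn3* (−0.56, −0.97 to −0.16, limma FDR 0.238) and *Gap43* (0.61, 0.17 to 1.04, limma FDR 0.238). *Dcx* had an estimate of −1.12 (−2.24 to 0.00, limma FDR 0.347). *Stmn3* passed the limit without *Kat6a*+/+ replicate 2 and *Gap43* without *Kat6a*+/– replicate 3, 1 member called in each case, with 1.08% and 2.23% of all genes called. Without *Kat6a*+/+ replicates 1 and 2 no member was called in either condition, with 0% of all genes in proliferating (333 at an unadjusted p under 0.05) and 0.0293% in differentiating NSPCs. The comparisons of *Kat6a*+/– and *Kat6a*–/– with *Kat6a*+/+ share the same 4 control libraries. Between *Kat6a*–/– and *Kat6a*+/– differentiating NSPCs *Dcx* and *Stmn3* were called, 2 of 8 members, both lower and without overlap, against 37.5% of all genes called (19.1% higher, 18.5% lower) and 16.2% without overlap, and neither was called without *Kat6a*–/– replicate 1 or 3. *Tubb3* did not differ detectably there (log2 −0.11, 95% interval −0.64 to 0.43).

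Other genes of the same pathways were counted from lists chosen by role, and in *Kat6a*+/– NSPCs none of their genes was called in limma. Among 18 neuronal tubulin isotypes and microtubule proteins, 3 were higher and 6 lower in differentiating *Kat6a*–/– than in *Kat6a*+/+ NSPCs, with a median log2 fold-change of −0.08 beside −0.02 for all genes, of which 26.7% were higher and 27.7% lower. The 3 most abundant were *Tuba1a* (−0.28, limma FDR 0.257), the main α-tubulin gene of young neurons, *Tubb2b* (0.21, limma FDR 0.284) and *Tubb2a* (0.57, limma FDR 0.00445). In proliferating NSPCs 1 was higher and 7 lower, beside 16.2% higher and 13.8% lower of all genes, and these 3 were all lower, *Tuba1a* by a log2 value of −0.37, *Tubb2b* by −0.47 and *Tubb2a* by −0.39. Of 7 general tubulin genes, 1 was higher and 4 lower in differentiating and 0 and 3 in proliferating *Kat6a*–/– NSPCs, with *Tubb5* lower in both (log2 −0.42 and −0.39).

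Growth cone and axon genes divided both ways, with 4 higher and 7 lower of 15 in differentiating *Kat6a*–/– NSPCs (median −0.38), where 26.7% of all genes were higher and 27.7% lower. *Marcksl1* was lower (log2 −0.85, limma FDR 2.66e-05), *Basp1* was higher (0.23, limma FDR 0.00961) and *Marcks* was not called (−0.22, limma FDR 0.116). These encode membrane-associated substrates of protein kinase C, as does *Gap43*. Of 11 neuronal RNA-binding protein genes, 1 was higher and 6 were lower (median −0.96), *Nova2* by a log2 value of −0.96 (limma FDR 2.94e-06), while *Nova1* (0.30) and *Rbfox2* (0.18) were not called. Among 16 tested synaptic genes, 4 were higher and 5 lower (median 0.00), and *Vamp2* (−0.18) and *Dlg4* (0.00) were not called. Of 4 tested intermediate filament genes 3 were higher and 1 lower, the 3 being *Vim* (0.61, limma FDR 0.000641), *Nes* (1.04, limma FDR 0.00126) and *Sync* (2.17, limma FDR 1.08e-05), of which *Vim* and *Nes* are abundant in progenitors. In proliferating *Kat6a*–/– NSPCs *Vim* (−0.47) and *Nes* (−0.36) were instead lower, and these were the 2 genes of that list tested there.

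Markers of cell types were set beside these results, with 26.7% of all genes higher and 27.7% lower in differentiating and 16.2% and 13.8% in proliferating *Kat6a*–/– NSPCs. Of 8 pan-neuronal markers, 3 of which are also among the 10 genes, 0 were higher and 5 lower in differentiating *Kat6a*–/– NSPCs. Their summed level was 471 to 783 CPM against 554 to 748 CPM in *Kat6a*+/+ NSPCs. Most of that sum was *Map2*, at 392 to 721 CPM in *Kat6a*–/– and 440 to 493 CPM in *Kat6a*+/+ libraries, so it says little about the other markers. Intermediate progenitor markers were lower for 5 and higher for 1 of 7 tested, with a sum of 62.5 to 190 CPM against 149 to 347 CPM. Interneuron markers were lower for 4 of 5 tested, at 1.94 to 4.09 against 6.44 to 33.0 CPM. The 6 markers of dividing cells were all lower, at 83.9 to 222 against 556 to 943 CPM. Fibroblast, meningeal and mural markers were higher for 4 of 5 tested, at 131 to 824 against 210 to 583 CPM, with *Lum* at 0 in all 4 *Kat6a*–/– libraries. Astrocyte markers summed to 803 to 5230 CPM against 999 to 1635 CPM, with 1 higher and 2 lower of 8. Excitatory neuron markers were tested for 2 of 7 genes, of which 1 was lower, at 8.40 to 12.2 against 13.9 to 26.9 CPM. Oligodendrocyte lineage markers were higher for 1 and lower for 4 of 6, at 698 to 1231 against 1201 to 1421 CPM. Radial glia markers were higher for 3 and lower for 4 of 9, at 9346 to 13673 against 7213 to 9182 CPM, without overlap. Their median log2 fold-change was −0.27. The abundant *Vim* and *Nes*, both higher, are among these 9 and weigh heavily in the sum, so it says little about the others. Endothelial markers were at 10.7 to 36.8 against 46.8 to 72.9 CPM, without overlap, and the 1 tested was lower. The other 5 endothelial markers averaged under 1 CPM in both genotypes, so their sum describes mostly 1 gene. Microglial markers summed to at most 1.81 CPM in any differentiating library. In proliferating *Kat6a*–/– NSPCs astrocyte markers were higher for 5 of 7 tested, at 428 to 571 against 210.1 to 249.3 CPM in *Kat6a*+/+. Both tested excitatory neuron markers were lower there, and microglial markers summed to 6.38 to 8.38 against 1.27 to 1.41 CPM. Only 1 of the 6 microglial markers was tested, and it was higher. The other 5 averaged under 1 CPM in both genotypes, so that sum describes 1 gene. The part of these shifts in the results for the 10 genes was not tested.

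How far the 10 genes vary together was described over the 12 differentiating libraries on log2(CPM + 0.5), which share genotypes and litters, so that no p is given. *Map2* and *Mapt* had a Pearson r of 0.84, *Dcx* and *Stmn3* 0.80, *Tubb3* and *Stmn3* 0.78, and *Stmn2* and *Gap43* 0.81. *Gap43* and *Stmn3* were opposed, with r = −0.74. *Tubb3* and *Dcx* shared less, with r = 0.46, and *Map2* and *Gap43* had r = 0.68. The genes whose pattern was most like the mean standardised level of the 10 were *Chchd6* (r = 0.90), *Stkld1* (0.87), *Grtp1* (0.87), *Mrps11* (0.85) and *Iqck* (0.84). Since members move in opposite directions, that mean describes no single gene. Nearest to *Dcx* alone were *Scrt1* (r = 0.96), *Mtcl3* (0.96) and *Pou3f4* (0.96), and nearest to *Stmn3* were *Orc2* (0.96), *Bcl11b* (0.95) and *Set* (0.95), both chosen after the values were seen.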

How the data were processed

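Whole-number read counts per gene were deposited for each of the 24 libraries. According to the labels and the study's methods the authors made these counts with bcl2fastq and featureCounts (Rsubread) on mm39 from stranded libraries, and versions and the strand setting were not given in the sources used here. Groups came from the labels. Genes that were protein-coding, passed filterByExpr and were neither *Xist* nor Y-linked were kept, 12276 in proliferating, 13339 in differentiating and 13590 in all libraries, and 52 genes had no biotype match. Counts were scaled by TMM (edgeR 4.0.16) and tested with limma 3.58.1 in R 4.3.3, two-sided, with Benjamini-Hochberg adjustment over all genes tested and an FDR limit of 0.05. Following the study's methods, proliferating libraries were fitted by limma-voom, litter being a random block with an estimated correlation of 0.287, and differentiating libraries by limma-trend on log2 CPM (prior count 2) with library quality weights. Both conditions together were fitted by limma-voom with the litter block (correlation 0.00365). This fit did not pair libraries of the same embryo label across conditions. With embryo as the random block instead, the same members were called in each of its comparisons. Alternatives were edgeR's quasi-likelihood test, DESeq2 1.42.0, other scaling, filters, blocks, covariates and weights, and leaving out each library. The fits without *Kat6a*+/+ replicates 1 and 2, or without replicate 1 in both conditions, were chosen after seeing the data. The tests were tried on simulated counts. RPKM used the gene model lengths.

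Named were the 10 genes, the 3 genes of each other pathway list with the highest mean RPKM over all libraries, and the 5 protein-coding genes most correlated with the mean of the 10 over differentiating libraries; 1 gene so named is not reported here. Members and lists were chosen with earlier results of these data known. Libraries of a condition carried embryo labels, some of the same litter, and 6 embryo labels occurred in both conditions. Intervals are at 95%, and floors of 3 counts cover counting error only.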

Additional observations from a re-analysis of the deposited data

Results flagged for a closer look

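Of 60 groups of 4 libraries, 10 genes in 6 groups, 4 held a library far from the other 3, and chance alone sets apart about 1 in 20 groups. *Gap43* in differentiating *Kat6a*–/– NSPCs was at 130.3 CPM in replicate 2 and at 58.4 to 65.7 CPM in the others. *Nefm* in proliferating *Kat6a*+/– NSPCs was at 1.56 CPM in replicate 4, on 16 reads, and at 0.898 to 0.966 CPM in the others. *Stmn2* was at 0.0816 CPM in replicate 3 of proliferating *Kat6a*+/– and at 0.0997 CPM in replicate 4 of proliferating *Kat6a*–/– NSPCs, each on 1 read, with the others at 0. A group with reads in 1 library alone is always set apart, so the rate of 1 in 20 does not apply to these *Stmn2* groups.

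The effect of *Kat6a*–/– differed between the conditions for *Dcx*, by −4.00 on the log2 scale, and for *Gap43*, by 1.45, both by an interaction term in limma.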

How the results depend on the processing

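For differentiating *Kat6a*–/– against *Kat6a*+/+, *Dcx*, *Stmn2* and *Stmn3* were called under all 11 other settings. In the settings that kept the filter on low counts, the filter favoured the call of *Stmn2*. The number of members called was 3 with litter as a fixed term (13.4% of all genes called) and 0 to 7 when single libraries were left out (6.99% to 70.6%). For proliferating *Kat6a*–/– against *Kat6a*+/+ it was 0 without *Kat6a*+/+ replicates 1 and 2 (7.51%). For proliferating *Kat6a*–/– against *Kat6a*+/– it was 0 in edgeR (7.75%) and without the litter block (7.82%), 1 in DESeq2, without the filter, with the replicate block, with the Y-linked covariate, in limma-trend with quality weights and without *Kat6a*+/+ replicates 1 and 2 (8.93% to 16.4%), and 0 to 3 with single libraries left out (5.64% to 17.8%). For differentiating *Kat6a*–/– against *Kat6a*+/– it was 0 in edgeR (12.4%) and in limma-voom with the litter block (1406 of 13339 genes), 1 without the filter (17.6%), with litter as a fixed term (2.89%) and without quality weights (12.1%), and 0 to 3 with single libraries left out (1.81% to 55%). For differentiating *Kat6a*+/– against *Kat6a*+/+ it was 0 to 1 with single libraries left out (0% to 2.23%). For the *Kat6a*–/– interaction it was 1 with the replicate block (13.2%), 1 without replicate 1 of *Kat6a*+/+ in both conditions (6.62%), 0 without *Kat6a*+/+ replicates 1 and 2 (3.29%) and 1 to 3 with single libraries left out (9.24% to 25.7%). The cause was not tested.

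Signs that reversed belonged to log2 values that were not called. *Mapt* in differentiating *Kat6a*–/– against *Kat6a*+/+ was 0.63 in edgeR, 0.64 in DESeq2, 0.22 without quality weights and 0.36 in limma-voom, and against *Kat6a*+/– it was 0.49 in edgeR, 0.49 in DESeq2, 0.038 with the Y-linked covariate, 0.14 without quality weights and 0.26 in limma-voom. *Mapt* was −0.51 with the Y-linked covariate in differentiating *Kat6a*+/– against *Kat6a*+/+, −0.083 without *Kat6a*+/+ replicates 1 and 2 in proliferating *Kat6a*–/– against *Kat6a*+/+, and −0.11 with library totals and −0.58 with voom quality weights in the interaction. *Dcx* in proliferating *Kat6a*–/– was −0.18 with litter as a fixed term and −0.057 without *Kat6a*+/+ replicates 1 and 2 against *Kat6a*+/+, and 0.16 without the litter block and 0.65 in limma-trend against *Kat6a*+/–. With differentiation in *Kat6a*–/– it was 0.11 in edgeR, 0.12 in DESeq2 and 0.037 with litter as a fixed term. *Stmn3* in the interaction was −0.022 in edgeR, −0.027 in DESeq2, −0.11 with library totals, −0.12 with litter as a fixed term, −0.037 with voom quality weights and −0.057 without *Kat6a*+/+ replicates 1 and 2. In differentiating *Kat6a*–/– *Map2* with library totals was −0.15 against *Kat6a*+/+ and −0.10 against *Kat6a*+/–, where *Tubb3* was 0.056 with the replicate block and *Ina* 0.031 with litter as a fixed term. *Map2* in differentiating *Kat6a*+/– against *Kat6a*+/+ was 0.0047 without *Kat6a*+/+ replicates 1 and 2.

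With single libraries left out, log2 values in differentiating *Kat6a*–/– against *Kat6a*+/+ ran from −0.95 to 0.85 for *Mapt* and from −0.018 to 0.32 for *Map2*, and against *Kat6a*+/– from −1.09 to 0.69 for *Mapt*, −0.053 to 0.32 for *Map2*, −0.018 to 0.88 for *Gap43* and −0.40 to 0.18 for *Tubb3*. In differentiating *Kat6a*+/– against *Kat6a*+/+ they ran from −0.25 to 0.34 for *Mapt* and −0.16 to 0.058 for *Map2*. In proliferating *Kat6a*–/– against *Kat6a*+/– *Dcx* ran from −0.44 to 0.46. With differentiation in *Kat6a*–/– they ran from −0.77 to 0.30 for *Dcx*, −0.11 to 0.87 for *Mapt* and −0.93 to 0.64 for *Nefm*, and in the interaction from −0.62 to 0.36 for *Mapt* and −0.25 to 0.25 for *Stmn3*.

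Equal replicate numbers did not pair the libraries: over 24 pairs the correlation of deviations ran from −0.51 to 0.57, 5 were over 0.1 and 4 were best with their own number. With the replicate block 5 members were called in differentiating *Kat6a*–/– against *Kat6a*+/+ and 1 in the interaction. Depth limited *Nefl*, *Nefm* and *Stmn2*, with at most 61 reads in a library.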
